A study of Zea mays with 6 samples.

Results

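The glossy genes of maize (Zea mays) are named for mutant seedlings whose leaves lack the waxy bloom and look shiny. A set of 6 of them was followed in leaves of a line edited in ZmGA20ox3 and of wild-type plants. Of these, gl1, gl2, gl4 and gl8 act in making wax, gl13 is a putative wax exporter, and gl15 regulates juvenile leaf identity. The members were chosen by identifier, not by a rule on their values, but with earlier results of these data known. All 6 were found among the 44320 genes of the deposited table. Identifiers and gene names were paired as in the list that defined the set (gl1 is Zm00001d020557, gl2 Zm00001d002353, gl4 Zm00001d051787, gl8 Zm00001d017111, gl13 Zm00001d039631 and gl15 Zm00001d046621). This pairing was not checked against an annotation here, since 0 of the 6 identifiers are in the reference gene table, so each name and role below rests on that list.

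Messenger RNA was sequenced from leaves at the V8 vegetative stage, with 3 libraries from wild-type plants (WT) and 3 from the knockout line labelled KO1, described as biological replicates. ZmGA20ox3 is a gibberellin 20-oxidase, an enzyme of the synthesis of gibberellins, hormones that promote stem elongation. Both groups are labelled with the cultivar KN5585 and with normal growth, and the growth protocol, which places the plants in a greenhouse, spells the wild-type line KN5855, so a shared background was not settled. KO1 is a single edited line, the labels do not say which leaf was taken, and neither the transcript of ZmGA20ox3 nor markers of leaf cell types were analysed here.

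Epidermal cells make cuticular wax by lengthening fatty acids in the endoplasmic reticulum, converting the very long chains to alcohols, aldehydes and other products, and exporting these through the plasma membrane to the leaf surface. In maize, juvenile leaves carry the waxy bloom and adult leaves largely lack that bloom. The gl15 product, a transcription factor of the APETALA2 family that is repressed by the microRNA miR172, maintains the juvenile features. Maize dwarfs that lack gibberellin are known to keep juvenile leaf features for longer.

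Among the 6 genes, the transcript of the putative wax exporter gene gl13 was higher in KO1 leaves, and no other passed the test. The mean level of gl13 in KO1 was 4.79 times that in WT, or 3.24 times without KO1 replicate 2. The 4 wax synthesis genes had means in KO1 between 0.915 and 1.42 times those in WT. The phase regulator gl15 was close to 0 in all 6 libraries and was not tested. Values are in TPM, which divides each transcript's reads by its length and gives them relative to the library total, so levels can be set side by side between genes. Differences were tested with limma on log2(TPM + 1) for the 20990 genes with at least 1 TPM in at least 3 libraries, at an adjusted p under 0.05. Of the 6 members, 5 met that filter and 1 was called, beside 15.7% of all tested genes, so the count itself does not set these genes apart. The call of gl13 was lost when WT replicate 1 or WT replicate 3 was left out.

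**Figure D1:**
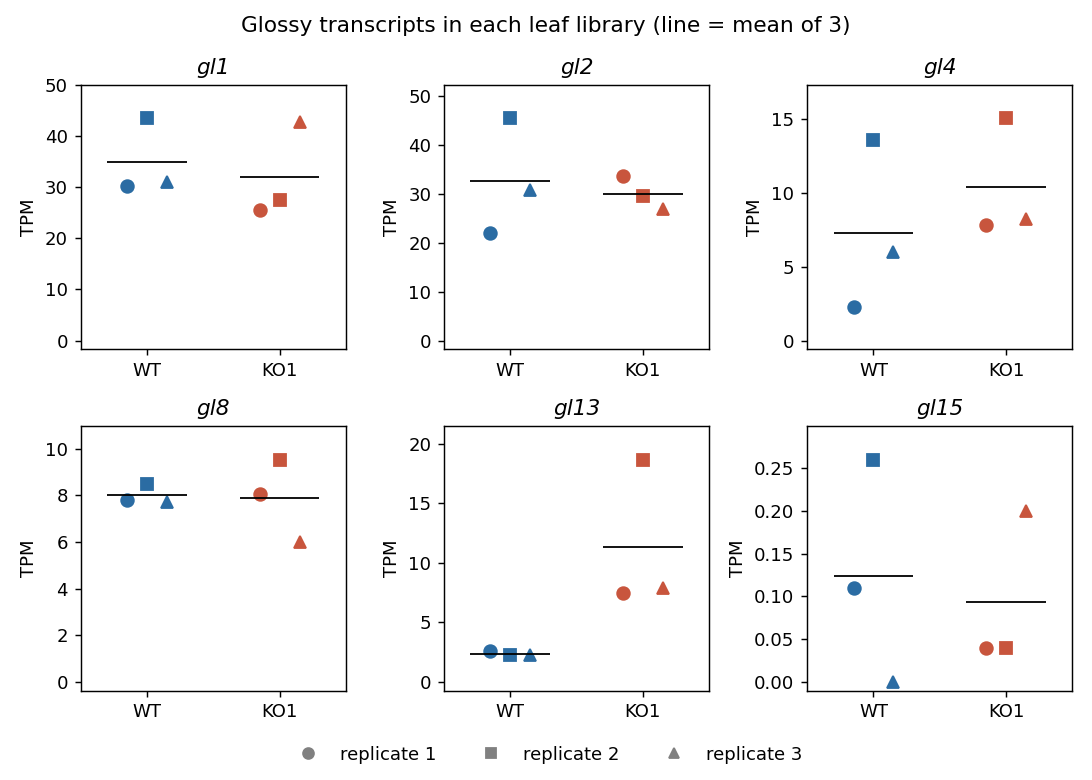
TPM of each gene (vertical axes, each starting just under 0) in the 3 WT and 3 KO1 libraries, with a symbol for each replicate number and a line at the mean of each group. The KO1 points of gl13 lie from 7.46 to 18.68 TPM, above all WT points, while the groups overlap for the other 5 genes.

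The gl13 gene encodes a putative ABC transporter that is needed for normal wax on the leaf surface. In WT replicates 1 to 3 its level was 2.62, 2.23 and 2.24 TPM, and KO1 replicates 1 to 3 reached 7.46, 18.68 and 7.85 TPM. The WT libraries were close together, the groups did not overlap, and KO1 replicate 2 stood well above the other KO1 libraries. Such a separation, with KO1 higher, was found for 22.9% of all tested genes.

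Over 3 libraries, gl13 averaged 2.36 ± 0.222 TPM for WT against 11.3 ± 6.37 TPM for KO1 (mean ± SD, n = 3). The difference was 1.76 ± 0.35 on the log2(TPM + 1) scale (SE; 95% confidence interval 0.93 to 2.59; limma adjusted p = 0.023). That scale understates the change of a gene as low as gl13 in WT. Of all tested genes, 9.87% were called higher in KO1, 5.86% were called lower, and 5.47% had a difference at least as large as that of gl13, so a rise of this size was not rare in these leaves. The balance of calls depends on the scaling: it was 2071 higher and 1230 lower as deposited, and 1656 higher and 1738 lower after quantile normalization. The number of genes at 1 TPM or more was also higher in each KO1 library (20697 to 21115) than in any WT library (19282 to 20537), and the part of this in the gl13 difference was not tested.

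The size of the gl13 rise depended in part on its highest library. Without KO1 replicate 2 the ratio of mean TPM was 3.24 in place of 4.79 and the difference was 1.37 on the log2(TPM + 1) scale, still past the threshold (limma adjusted p = 0.019). The call held without WT replicate 2 (difference 1.73, limma adjusted p = 0.046), KO1 replicate 1 (1.97, limma adjusted p = 0.042) or KO1 replicate 3 (1.94, limma adjusted p = 0.041). It was lost without WT replicate 1 (difference 1.81, limma adjusted p = 0.062) and without WT replicate 3 (difference 1.73, limma adjusted p = 0.089). Without those libraries the number of genes called among all tested also fell, from 3301 to 1314 and 778 in turn. In a whole leaf, a different number of epidermal cells and a different amount of transcript per cell cannot be told apart, and this holds for each gene described here.

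**Figure D2:**
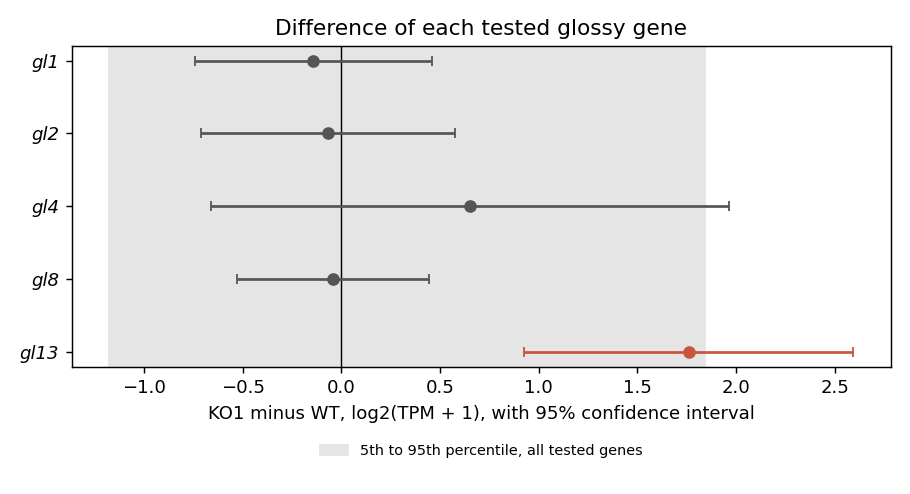
Difference between KO1 and WT on the log2(TPM + 1) scale (horizontal axis) for the 5 tested glossy genes, with 95% confidence intervals and the called gene in red. The grey band spans the 5th to the 95th percentile of the differences of all 20990 tested genes, from -1.18 to 1.84. The interval of gl13 lies above 0, from 0.93 to 2.59, and those of the other 4 genes include 0.

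The chain-lengthening enzymes were represented by gl4 and gl8. The gl4 gene encodes a 3-ketoacyl-CoA synthase, which carries out the condensing step that adds carbons to the growing chain. The 3 WT libraries held 2.30, 13.63 and 6 TPM of it, and the 3 KO1 libraries 7.86, 15.07 and 8.23 TPM. The WT libraries spanned a 5.93-fold range that enclosed 2 of the 3 KO1 values.

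The difference of gl4 was 0.65 ± 0.55 on the log2(TPM + 1) scale (SE; 95% confidence interval -0.66 to 1.96; limma adjusted p = 0.438). This interval reaches from a 0.634-fold to a 3.90-fold level in KO1 on that scale, a span that takes in both lower and higher levels. Its SD within WT, 1.07 on the same scale, was larger than that of 94.9% of the 4451 tested genes with a mean level within 1.5-fold of its own. WT replicate 1, where gl4 was lowest, was also the library with the fewest genes at 1 TPM or more (19282), and the part of this in the gl4 values was not tested. Without WT replicate 1 the difference of gl4 was 0.11, and without WT replicate 2, where gl4 was highest in WT, it was 1.19, and neither passed the test (limma adjusted p = 0.886 and 0.117).

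The gl8 gene encodes a 3-ketoacyl reductase, which acts in the next step of the same elongation cycle. Among the 5 tested members it varied least in WT on the log2 scale, at 7.81, 8.50 and 7.72 TPM, while the KO1 libraries held 8.08, 9.54 and 5.99 TPM. KO1 values thus lay on both sides of the WT range. The difference was -0.04 ± 0.20 on the log2(TPM + 1) scale (SE, 95% confidence interval -0.53 to 0.44, limma adjusted p = 0.904). On that scale the interval leaves room for a KO1 level between 0.693-fold and 1.36-fold that of WT.

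The gl2 protein belongs to the BAHD acyltransferase family and is needed to reach the longest wax chains. Its transcript stood at 22.01, 45.45 and 30.70 TPM across the WT replicates and at 33.69, 29.58 and 26.81 TPM across those of KO1. All 3 KO1 values fell inside the WT range. The difference was -0.07 ± 0.27 on the log2(TPM + 1) scale (SE; 95% confidence interval -0.71 to 0.58; limma adjusted p = 0.883).

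The gl1 protein resembles CER3 of Arabidopsis, a membrane protein of the route from very long acyl chains to alkanes. WT leaves carried 30.20, 43.52 and 31.04 TPM of its transcript, and KO1 leaves 25.50, 27.49 and 42.86 TPM. In KO1, replicates 1 and 2 lay below every WT library and replicate 3 lay near the top of the WT range. The difference was -0.14 ± 0.25 on the log2(TPM + 1) scale (SE; 95% confidence interval -0.74 to 0.46; limma adjusted p = 0.722).

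The phase regulator gl15 was barely present. It was listed at 0.11, 0.26 and 0 TPM in WT replicates 1 to 3 and at 0.04, 0.04 and 0.20 TPM in KO1. The groups overlapped, and the highest value in any library was far under the 1 TPM needed for testing. Within each library where it was above 0, its rank among the genes above 0 ran from percentile 0.799 to percentile 10.1. With the filter removed, its difference was -0.04 on the log2(TPM + 1) scale (limma adjusted p = 0.854), a scale on which values this low can hardly differ. Since sequencing depth is unknown, the table does not show how many reads lie behind these values, and no direction is read from them.

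Ordered by level, the set fell into 3 tiers that were the same in every library at the top and the bottom. The highest tier held gl1 (34.9 ± 7.46 TPM for WT, 31.9 ± 9.50 TPM for KO1; mean ± SD, n = 3) and gl2 (32.7 ± 11.8 and 30.03 ± 3.46 TPM). Which of these ranked first changed between libraries, each leading in 3 of 6, so their levels did not differ beyond their spread. The lowest place was always that of gl15.

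The middle tier held gl4, gl8 and gl13, whose order varied within each genotype and was the same in WT replicate 3 as in KO1 replicate 1. In WT, gl8 (8.01 ± 0.427 TPM; SD, n = 3) lay above gl13 in all 3 libraries, while gl4 (7.31 ± 5.78 TPM; SD, n = 3) ranged from below gl13 to above gl8. In KO1, gl4 (10.4 ± 4.06), gl8 (7.87 ± 1.78) and gl13 (11.3 ± 6.37 TPM; mean ± SD, n = 3) overlapped. Among the genes above 0 in its library, gl13 stood at percentiles 35.8, 30.8 and 32.4 in WT and at 49.2, 70.05 and 51.4 in KO1. These ranks do not depend on a scaling factor of the libraries. They were separate between the groups, as were those of 21.6% of tested genes with KO1 higher. The ranks do depend on the number of genes above 0, which was 25403 to 26275 in WT and 26611 to 26924 in KO1. The part of this in the gl13 ranks was not tested.

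**Figure D3:**
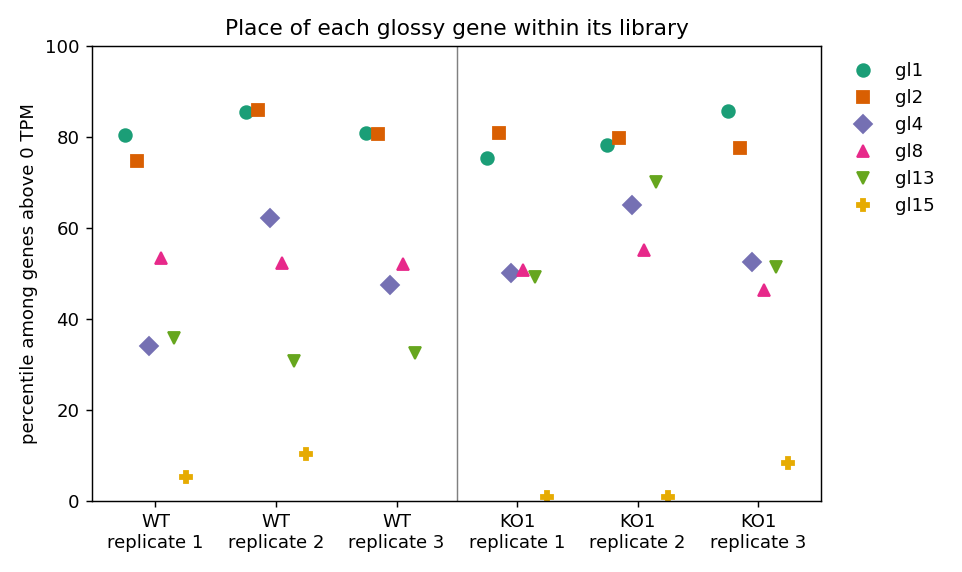
Percentile of each gene among the genes above 0 TPM in the same library (vertical axis) for the 3 WT and 3 KO1 libraries (horizontal axis). The gl13 points lie between percentiles 30.8 and 35.8 in WT and at or above 49.2 in KO1, gl1 and gl2 share the top in all 6 libraries, and gl15, not drawn where it is listed at 0, lies at the bottom.

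A ratio between 2 genes of the same library is also free of library scaling. The ratio of gl13 to gl8 was 0.335, 0.262 and 0.290 in WT replicates 1 to 3 and 0.923, 1.96 and 1.31 in KO1. The gl13 transcript was thus well under the gl8 transcript in each WT library and near or above it in each KO1 library. Relative to gl8, 22.4% of the other tested genes were likewise separate between the groups with KO1 higher.

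The ratio of gl13 to gl1 was 0.0868, 0.0512 and 0.0722 in WT and 0.293, 0.680 and 0.183 in KO1. The ratio of gl13 to gl2 was 0.119, 0.0491 and 0.0730 in WT and 0.221, 0.632 and 0.293 in KO1. Both ratios were separate between the groups, with KO1 higher, as they were for 17.4% of tested genes relative to gl1 and 20.9% relative to gl2. Against gl4 the groups overlapped: the ratio was 1.14, 0.164 and 0.373 in WT and 0.949, 1.24 and 0.954 in KO1, and relative to gl4 the groups were separate with KO1 higher for 5.8% of tested genes.

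On a log2 scale, the ratio of gl13 was higher in KO1 by 2.28 relative to gl1, by 2.20 relative to gl2 and by 2.18 relative to gl8 (exact two-sided permutation p = 0.1 for each, the smallest that 3 libraries against 3 can give). Relative to gl4 it was higher by 1.34 (exact permutation p = 0.3). Adjusted over all 10 pairs of the 5 wax genes, the lowest p was 0.333. A permutation test of 3 libraries against 3 cannot put any of these ratios past 0.05, so it decides nothing here. The ratios also share the same gl13 values, so they restate the gl13 difference and are not separate evidence. For the 6 pairs that do not include gl13, the groups overlapped in each case. The share of all tested genes separate in either direction was not computed, so this count does not set those pairs apart.

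**Figure D4:**
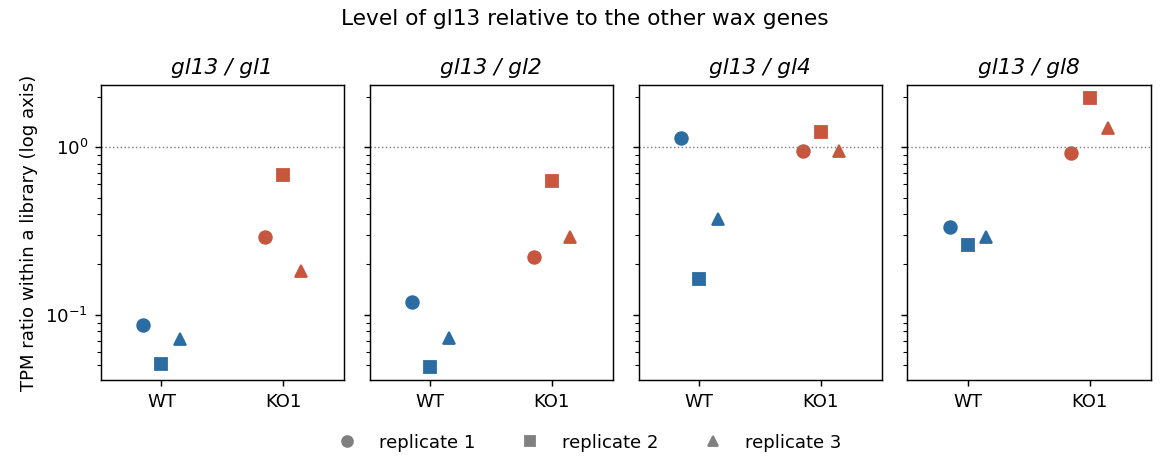
TPM of gl13 divided by the TPM of gl1, gl2, gl4 or gl8 in the same library (vertical axis, logarithmic) in WT and KO1, with a symbol for each replicate number and a dotted line at a ratio of 1. The groups are separate in the panels for gl1, gl2 and gl8 and overlap in the panel for gl4, where WT replicate 1 reaches 1.14.

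Summed over the 5 wax genes, WT libraries held 64.9, 113 and 77.7 TPM, and KO1 libraries 82.6, 100.4 and 91.7 TPM. The KO1 sums lay inside the WT range. Within this sum, gl13 made up 4.03%, 1.97% and 2.88% in WT and 9.03%, 18.6% and 8.56% in KO1. The largest parts were those of gl1 and gl2, at 27.4% to 46.7% and 29.2% to 40.8% over the 6 libraries.

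The 5 wax genes did not vary as a block over the 6 libraries. Pearson correlations of their log2(TPM + 1) ranged from -0.52 between gl1 and gl8 to 0.72 between gl2 and gl4. Spearman rho for these pairs was -0.31 and 0.37. By rank, the range ran from -0.54 between gl1 and gl13 to 0.6 between gl4 and gl8. These values describe 6 libraries that share their genotype labels in groups of 3. The highest pair by Pearson correlation, gl2 and gl4, had both genes at their WT maximum in WT replicate 2 and at their minimum in WT replicate 1.

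The 2 genes most like the mean standardised pattern of the 5 wax genes were Zm00001d039842 (Pearson r = 0.996, Spearman rho = 1, 6 libraries) and Zm00001d045945 (r = 0.986, rho = 1). They were picked from 15398 tested genes with a mean of at least 5 TPM, of which 194 had r above 0.9. The first of these stood at 11.7, 35.3 and 16.5 TPM across WT and at 20.5, 32.6 and 18.1 TPM across KO1. The pattern they share with the wax mean is high in replicate 2 of both genotypes and low in WT replicate 1, with overlapping groups. For gl15 the most alike were Zm00001d047518 (r = 0.969, rho = 0.986) and Zm00001d009264 (r = 0.959, rho = 0.928), a likeness that rests on gl15 values of at most 0.26 TPM. Of the same 15398 genes, 7 had r above 0.9 with gl15. Zm00001d047518 itself stayed between 16.8 and 21.5 TPM over the 6 libraries.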

How the data were processed

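The authors deposited TPM values for 6 libraries, rounded to 2 decimals, and each column has the same total to within rounding. The submitters' processing notes name RSEM, Bowtie2 and DESeq2 without roles, and no genome build or annotation is given in the sources used here. TPM keeps no depth, so no counting interval or detection limit is given, and a rise of some transcripts lowers all others.

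Groups and replicate numbers came from the sample titles. The fit used limma 3.58.1 under R 4.3.3, with log2(TPM + 1) as response, a variance trend, two-sided tests and Benjamini-Hochberg adjustment over 20990 genes. Ratios were compared by exact permutation tests. Plots used matplotlib 3.10.9.

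Named genes were the 6 members and, for each of 2 patterns, the 2 most alike genes. The members and lists were chosen with earlier results of these data known. Lists of 28 other wax, 13 phase and 16 cell type marker symbols were not analysed here, as 0 of the 44320 identifiers matched the reference table of 49888 genes (Zm-B73-REFERENCE-NAM-5.0), and no sequences are shown. Alternatives covered pseudocount, filter, scaling, variance model, replicate block and each library left out.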

Additional observations from a re-analysis of the deposited data

How the results depend on the processing

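The gl13 rise kept its direction in all 14 alternatives, with differences from 1.37 to 2.08, and its call in 12. Over all 14, the limma adjusted p ran from 0.019 to 0.089. With 1 library left out at a time, the range was 1.37 to 1.97 for gl13, 0 or 1 for the number of members called and 778 to 2929 for the genes called among all tested. That last count was 3301 with all libraries. It fell to 1314 or 778 when WT replicate 1 or 3 was dropped, and to 1482 or 1856 when KO1 replicate 1 or 2 was dropped. The other 8 alternatives gave 2445 to 3394. None of gl1, gl2, gl4 and gl8 passed the test in any alternative. When each library was left out, gl1 ranged from -0.37 to 0.022, gl2 from -0.31 to 0.19, gl4 from 0.11 to 1.19, gl8 from -0.18 to 0.12 and gl15 from -0.12 to 0.05. The signs of gl1 and gl2 turned without WT replicate 2 (0.022 and 0.19), and those of gl2 and gl8 without KO1 replicate 3 (0.0094 and 0.12), so no direction is read from these genes. The cause was not tested. Under quantile normalization, which moved the median difference of all tested genes from 0.05 to -0.09, gl13 differed by 1.58 (limma adjusted p = 0.039). With a replicate block gl13 kept its difference of 1.76 (limma adjusted p = 0.039), no call of a member changed and 2806 genes were called. Deviations of same-numbered libraries correlated at -0.01, 0.09 and 0.02 over the tested genes, and those of unlike number at -0.11 to 0.11. Whether same-numbered libraries were handled together is not given in the titles and was not tested. For gl4 the block lowered the SE from 0.55 to 0.31 (limma adjusted p = 0.222). The depth is unknown, which limits gl15 in particular.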
